A study of Mus musculus with 6 samples.

Results

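The genes described here are 8 genes of bone-forming cells, Runx2, Sp7, Alpl, Ibsp, Spp1, Omd, Bglap and Bglap2, read from a table of 55023 genes in cultures of mouse bone marrow-derived macrophages. They were picked by symbol, with earlier results of these libraries known, so their levels are a description and their differences between groups carry no test. Total RNA was sequenced from 6 libraries, all collected after 24 h of treatment in culture. There were 2 libraries with vehicle, 2 with the lymphotoxin LTα1β2 alone and 2 with LCL161 together with LTα1β2. LTα1β2 is a trimeric cytokine whose receptor is LTβR. LCL161 is a SMAC mimetic, a small molecule that antagonises cIAP1 and cIAP2. No group had LCL161 without LTα1β2. The sources used here do not give mouse strain, age, doses or how the macrophages were grown. The labels do not say whether the libraries of a group came from separate cultures or animals, so the spread behind every p-value may be technical.

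Osteoblasts arise from mesenchymal progenitors, and Runx2 and then Sp7 are the transcription factors that commit a progenitor to this fate. The committed cell makes alkaline phosphatase (Alpl) and a collagen I matrix with bone sialoprotein (Ibsp) and osteopontin (Spp1), and a mature osteoblast also secretes osteocalcin (Bglap and Bglap2). Macrophage cultures grown from whole marrow can carry adherent stromal cells of this lineage. Spp1 is not restricted to bone: macrophages and osteoclasts also make it.

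Total counts were 14718368 to 19049613 per library, and 18812 genes passed a filter on low counts. Levels are in CPM, which are counts put on 1 scale for library total and composition, and differences between groups are log2 changes with an approximate standard error (SE) from edgeR's quasi-likelihood fit. Of the 8 genes, 6 passed the filter; Bglap and Bglap2 did not. A defining marker of the mature osteoblast, osteocalcin, was therefore at or near 0 in these cultures, while the other 6 genes were measurable. The name osteoblast is used for the genes only and not for the cells that held them. Macrophage markers were abundant: the summed level of 12 macrophage genes was 28390 to 34880 CPM in vehicle, 33860 to 34550 CPM with LTα1β2 and 33750 to 35630 CPM with LCL161 plus LTα1β2. The lysozyme gene Lyz2 made up most of that sum, with 25170 ± 4034 CPM in vehicle (SD, n = 2). Single markers also moved: 8 of the 12 rose and 2 fell with LTα1β2, and 3 rose and 5 fell on adding LCL161, at an adjusted p under 0.05. By the same measure 12.8% of all tested genes rose and 10.6% fell with LTα1β2, and 10.6% rose and 15.1% fell on adding LCL161. The Fc receptor gene Fcgr1 rose from 32.9 ± 0.747 to 196 ± 1.38 CPM with LTα1β2 (adjusted p = 3.79e-06), and the mannose receptor gene Mrc1 fell from 119 ± 14.4 to 29.4 ± 1.62 CPM (adjusted p = 6.56e-05).

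**Figure D1:**
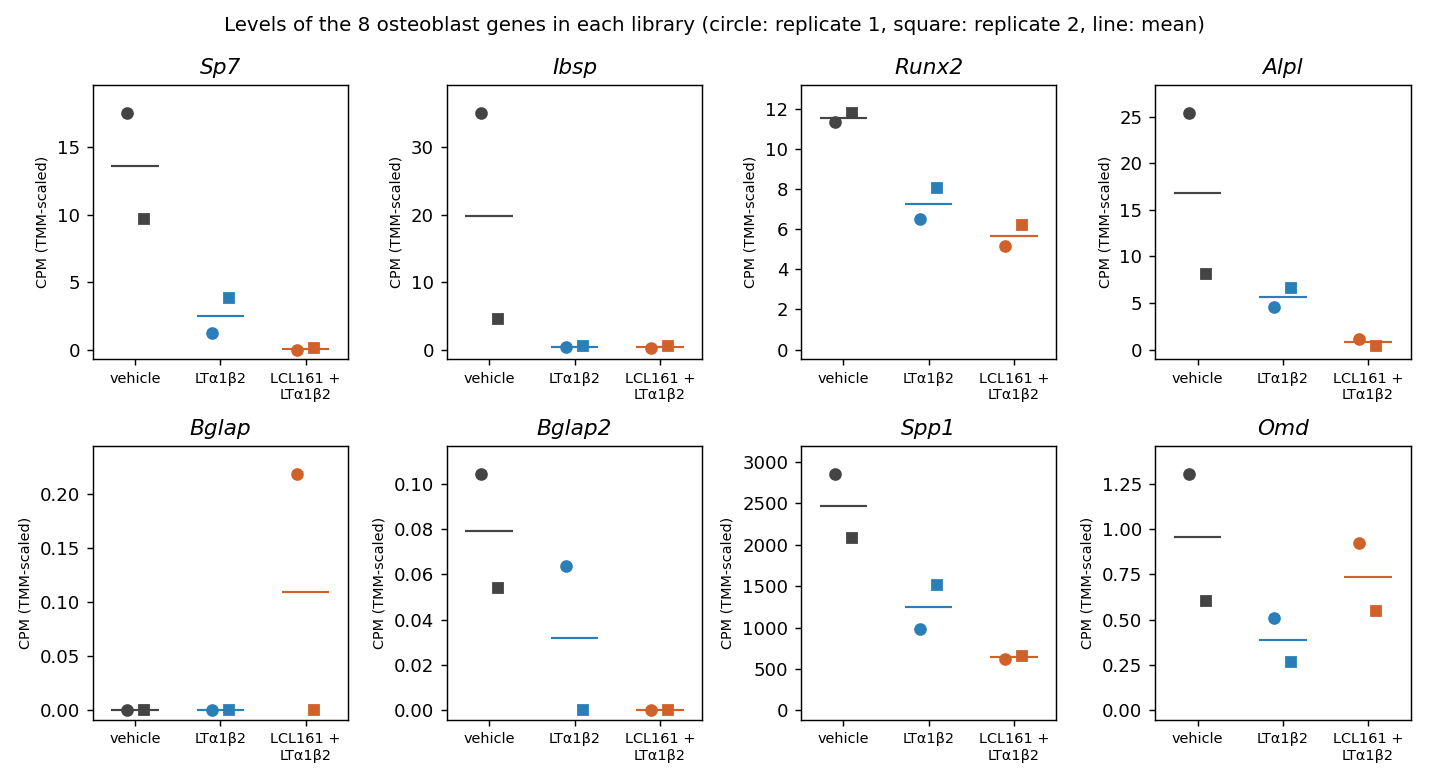
CPM of each of the 8 genes (vertical axes, linear, each panel with its own scale) in the 6 libraries by group, with circles for replicate 1, squares for replicate 2 and a line at the group mean. Sp7, Ibsp, Alpl, Spp1 and Omd were highest in vehicle replicate 1, Runx2 was nearly equal in the vehicle libraries, and Bglap and Bglap2 stayed at a few reads at most.

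The lineage regulators were present in vehicle. Runx2, the earliest of them, had 245 and 218 reads in the vehicle libraries (11.3 and 11.8 CPM), 102 and 150.5 with LTα1β2 (6.51 and 8.05 CPM) and 70.5 and 81 with LCL161 plus LTα1β2 (5.14 and 6.20 CPM). The vehicle libraries nearly coincided, and both lay above the other 4. The log2 change of Runx2 was -0.67 (SE 0.17) for LTα1β2 against vehicle, -0.37 (SE 0.18) for adding LCL161 and -1.03 (SE 0.18) for the combination against vehicle. Without LTα1β2 replicate 1, the first of these was -0.45. Runx2 lies on chromosome 17 at 44495987 to 44814797 in GRCm38, and its exons overlap Runx2os1 on the other strand, so antisense reads may be included if strand was not used in counting.

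Sp7, also called osterix, acts after Runx2. It had 378 and 179 reads in vehicle (17.5 and 9.67 CPM), 19 and 71 with LTα1β2 (1.21 and 3.80 CPM), and 0 and 2 with LCL161 plus LTα1β2. The 3 groups did not overlap, and the levels stepped down from vehicle through LTα1β2 to near 0 with the combination. Against vehicle the log2 change with LTα1β2 was -2.41 (SE 0.49), and it was -3.49 without LTα1β2 replicate 2 and -1.76 without LTα1β2 replicate 1. For the combination, with 2 reads in all, the ratio of counts is given instead: Sp7 was 35.0-fold lower than with LTα1β2 (95% counting interval 9.42 to 294) and 186-fold lower than in vehicle (51.2 to 1538). These intervals cover counting error only. Leaving out 1 library gave ratios of 16.2 (without LTα1β2 replicate 2) to 50.8 (without LTα1β2 replicate 1) for the first and 90.7 (without combination replicate 1) to 234 (without vehicle replicate 2) for the second. Without combination replicate 1 the first was 17.1. Without combination replicate 2 no read was left, and against a floor of 3 reads Sp7 was at least 12-fold and at least 63.4-fold lower. Sp7 lies on chromosome 15 at 102356606 to 102367182.

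Alpl encodes the tissue-nonspecific alkaline phosphatase that frees phosphate for mineral. Its vehicle libraries stood apart, with 548 and 151 reads (25.4 and 8.16 CPM). It had 72 and 124 reads with LTα1β2 (4.595 and 6.63 CPM) and 16 and 5 with LCL161 plus LTα1β2 (1.17 and 0.383 CPM). Although the groups did not overlap, the lower vehicle library was close to the higher LTα1β2 library. The log2 change was -1.58 (SE 0.51) with LTα1β2 against vehicle and only -0.54 when vehicle replicate 1 was left out. Adding LCL161 gave -2.84 (SE 0.75), and leaving out 1 library gave -3.88 (without LCL161 plus LTα1β2 replicate 1) to -2.33. The combination against vehicle gave -4.41 (SE 0.69), or -3.42 without vehicle replicate 1. Alpl lies on chromosome 4 at 137741733 to 137796384.

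Ibsp encodes bone sialoprotein, a matrix protein that binds hydroxyapatite. One library carried most of its reads: vehicle replicate 1 had 756 (35.0 CPM), against 82.75 in vehicle replicate 2 (4.47 CPM), 6 and 9 with LTα1β2 (0.383 and 0.481 CPM) and 4 and 6 with LCL161 plus LTα1β2 (0.292 and 0.460 CPM). Both vehicle libraries still exceeded every treated library, and the treated groups overlapped. For LTα1β2 against vehicle the log2 change was -5.49 (SE 1.08), and it was -3.35 without vehicle replicate 1. Adding LCL161 gave no measurable step: the ratio of LTα1β2 to combination reads was 1.17 with a 95% counting interval of 0.491 to 2.91. The combination against vehicle gave -5.70 (SE 1.16), or -3.61 without vehicle replicate 1. Ibsp lies on chromosome 5 at 104299171 to 104311469.

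Spp1, osteopontin, is a secreted phosphoprotein of the same family as Ibsp and lies near it on chromosome 5 at 104435118 to 104441050. It was by far the most abundant of the 8, with 2854 and 2086 CPM in vehicle, 978 and 1518 CPM with LTα1β2, and 621 and 657 CPM with LCL161 plus LTα1β2. The groups did not overlap, and the combination had the smallest spread. Its log2 change was -0.98 (SE 0.22) with LTα1β2, -0.97 (SE 0.22) for adding LCL161 and -1.95 (SE 0.23) for the combination against vehicle. Leaving out LTα1β2 replicate 1 gave -0.62 and -1.31 for the first and the second of these, and leaving out LTα1β2 replicate 2 gave -1.35 and -0.65. Exons of Spp1 overlap those of Gm42793 on the same strand, which had 337 to 2664 reads per library, so how reads were divided between them is uncertain.

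Per kilobase of exon, Spp1 stood at 1499 CPM per kb in vehicle, far above Ibsp (9.54), Alpl (4.16), Sp7 (3.999), Runx2 (1.31) and Omd (0.424). Col1a1, the main collagen gene of bone and of fibroblasts, stood at 338 on that scale. In vehicle the order from Ibsp to Sp7 was not resolved, since the group SDs of Ibsp (21.6 CPM on a mean of 19.7) and Alpl (12.2 on 16.8) were as large as the gaps. With LCL161 plus LTα1β2, Spp1 was still at 388 CPM per kb, while Runx2 was at 0.642, Omd at 0.327, Alpl at 0.192, Ibsp at 0.182 and Sp7 at 0.0225.

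Omd, osteomodulin, is a small leucine-rich proteoglycan of mineralised tissue. It was scarce, with 28.17 and 11.17 reads in vehicle (1.30 and 0.604 CPM), 8 and 5 with LTα1β2 (0.511 and 0.267 CPM), and 12.62 and 7.17 with LCL161 plus LTα1β2 (0.921 and 0.549 CPM). The combination lay between, overlapping vehicle and above LTα1β2. Its log2 change was -1.30 (SE 0.63) with LTα1β2, 0.95 (SE 0.67) for adding LCL161 and -0.35 (SE 0.60) for the combination against vehicle, and the last was 0.27 without vehicle replicate 1. The counting interval for the ratio of LTα1β2 to combination reads, 0.231 to 1.07, includes equality. Omd lies on chromosome 13 at 49582462 to 49592822.

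The osteocalcin genes were all but silent. Bglap (chromosome 3 at 88383501 to 88384464) had 0 reads in both vehicle and both LTα1β2 libraries and 3 and 0 with LCL161 plus LTα1β2. Bglap2 (chromosome 3 at 88377736 to 88378699) had 2.25 and 1 reads in vehicle, 1 and 0 with LTα1β2 and 0 in both combination libraries. A count of 0 still allows up to 3 reads, which is 0.139 to 0.230 CPM in these libraries, so neither gene can be compared between groups at this depth. The 2 genes are near copies: of the 50-base stretches in the annotated Bglap transcripts 51.3% also occur in Bglap2, so reads may have been set aside or shared between them. The third copy, Bglap3, had 0.75 and 0 reads in vehicle, 0 in both LTα1β2 libraries, and 3 and 1 with the combination.

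RefSeq promoter sequences (GRCm38.p6) were found for 6 of the 8 genes, not for Sp7 and Bglap2. Those of Spp1 and Bglap are shown because these genes mark the ends of the range of levels, 2470 ± 544 CPM and 0 CPM in vehicle, and both windows hold the core that RUNX proteins recognise. Each run is the 250 bases before the annotated start, 5′ to 3′ on the gene's own strand, with the RUNX core ACCACA in capitals; both strands were searched, and TGTGGT is its reverse complement. The Spp1 window is chr5:104434861-104435110 on the plus strand and the Bglap window chr3:88384467-88384716 on the minus strand.
Spp1: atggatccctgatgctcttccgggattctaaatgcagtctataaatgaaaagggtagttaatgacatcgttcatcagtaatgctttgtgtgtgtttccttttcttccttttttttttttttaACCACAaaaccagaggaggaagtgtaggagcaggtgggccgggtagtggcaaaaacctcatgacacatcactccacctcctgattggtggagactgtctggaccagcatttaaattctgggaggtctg
Bglap: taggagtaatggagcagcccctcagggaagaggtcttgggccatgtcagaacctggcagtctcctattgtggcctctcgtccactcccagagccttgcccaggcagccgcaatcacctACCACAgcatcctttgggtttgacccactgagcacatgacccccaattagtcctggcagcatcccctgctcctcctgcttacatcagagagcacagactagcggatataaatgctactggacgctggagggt
In Spp1 the core starts 128 bases, and in Bglap 132 bases, before the start. Of 8 windows of the 6 genes (Alpl and Spp1 have more than 1 start), 3 hold the core, the other being that of Runx2, as do 14% of all 32851 promoter windows of this length. A match is only a run of letters and does not show that RUNX2 bound there.

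The vehicle libraries differed from each other more in some of these genes than in most of the transcriptome. Replicate 1 exceeded replicate 2 by 7.80-fold for Ibsp (95% counting interval 6.21 to 9.91), 3.11-fold for Alpl (2.59 to 3.75), 2.18-fold for Omd (1.05 to 4.85), 1.81-fold for Sp7 (1.51 to 2.17) and 1.37-fold for Spp1 (1.35 to 1.39). For Runx2 the ratio was 0.963 (0.799 to 1.16). Over all 18812 tested genes the median difference between the vehicle libraries was 1.15-fold, in either direction, and 95% of genes were within 2.57-fold. On that scale 1.08% of genes differed more than Ibsp, 3.61% more than Alpl, 7.17% more than Omd, 10.7% more than Sp7 and 83.2% more than Runx2. Col1a1 was 1.61-fold higher in vehicle replicate 1, and the summed level of 13 marrow stromal markers was 696 CPM there against 443 CPM in replicate 2. In the LTα1β2 group the order was the other way round: replicate 2 had 3.13-fold more Sp7 (1.87 to 5.50), 1.55-fold more Spp1 (1.52 to 1.58) and 1.44-fold more Alpl (1.07 to 1.96), and 1.48-fold more Col1a1. With LCL161 plus LTα1β2, replicate 1 had 3.05-fold more Alpl (1.07 to 10.6), and Spp1 differed by 1.06-fold. The replicate numbers are names and have no order.

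**Figure D2:**
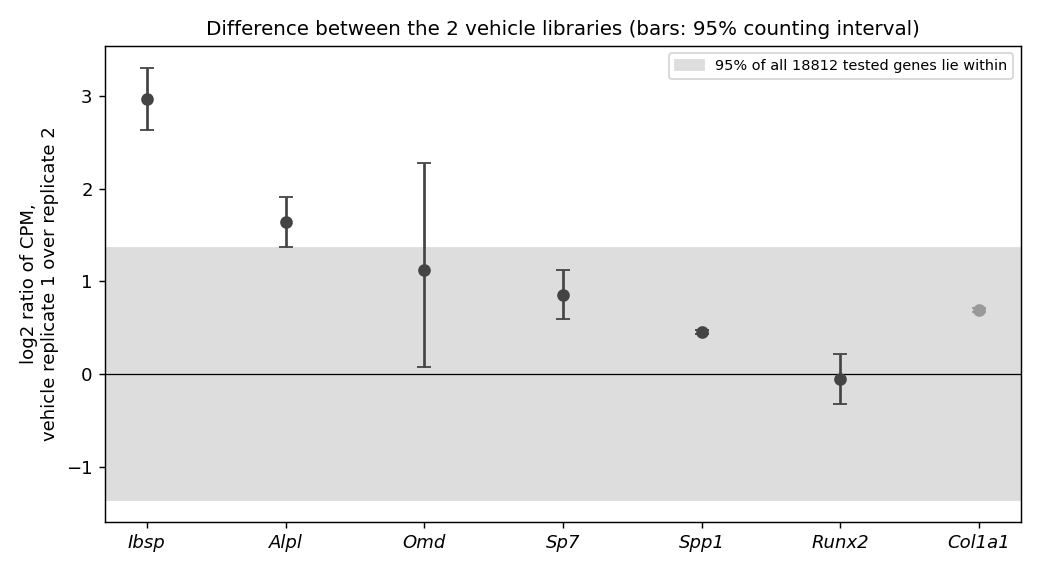
Log2 ratio of CPM in vehicle replicate 1 over vehicle replicate 2 (vertical axis) for the 6 measurable genes and Col1a1, with bars for the 95% counting interval and a grey band that holds 95% of all tested genes. Ibsp and Alpl lie above the band, at ratios of 7.80 and 3.11, and Omd, Sp7, Spp1 and Runx2 lie inside it.

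Set side by side, the 6 genes took different courses. With LTα1β2 both libraries lay below both vehicle libraries for 6 of the 6; 33.7% of all tested genes did so. Adding LCL161 put both combination libraries below both LTα1β2 libraries for Sp7, Runx2, Alpl and Spp1 (34.2% of all tested genes), above them for Omd, and in overlap for Ibsp. The combination lay below vehicle for 5 of 6 (35.8% of all tested genes), with Omd the exception. Calls in edgeR's fit over all genes, at an adjusted p under 0.05, covered 4 of 6 as lower for LTα1β2 against vehicle (Sp7, Ibsp, Runx2 and Spp1), where 10.6% of all tested genes were called lower and 23.4% in either direction. They covered 3 of 6 for adding LCL161 (Sp7, Alpl and Spp1; 15.1% of all tested genes lower, 25.7% in either direction) and 5 of 6 for the combination against vehicle (not Omd; 21.1% lower, 39.5% in either direction). The genes were picked with these comparisons known, so nothing is read from the counts. Without vehicle replicate 1 or LTα1β2 replicate 1, the first count was 1 (Ibsp or Sp7), and without LTα1β2 replicate 2 it was 2 (Sp7 and Spp1). The second count was 0 without LTα1β2 replicate 2, 1 (Alpl) without LCL161 plus LTα1β2 replicate 1 and 2 (Sp7 and Spp1) without LCL161 plus LTα1β2 replicate 2, and the third was 5 whichever library was left out. Runx2 was not in the first count with any 1 library of that comparison left out (log2 change -0.84 to -0.45). With limma voom the counts were 3 (not Ibsp), 1 (Spp1) and 4 (not Ibsp). The comparisons share libraries and are not independent of each other.

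**Figure D3:**
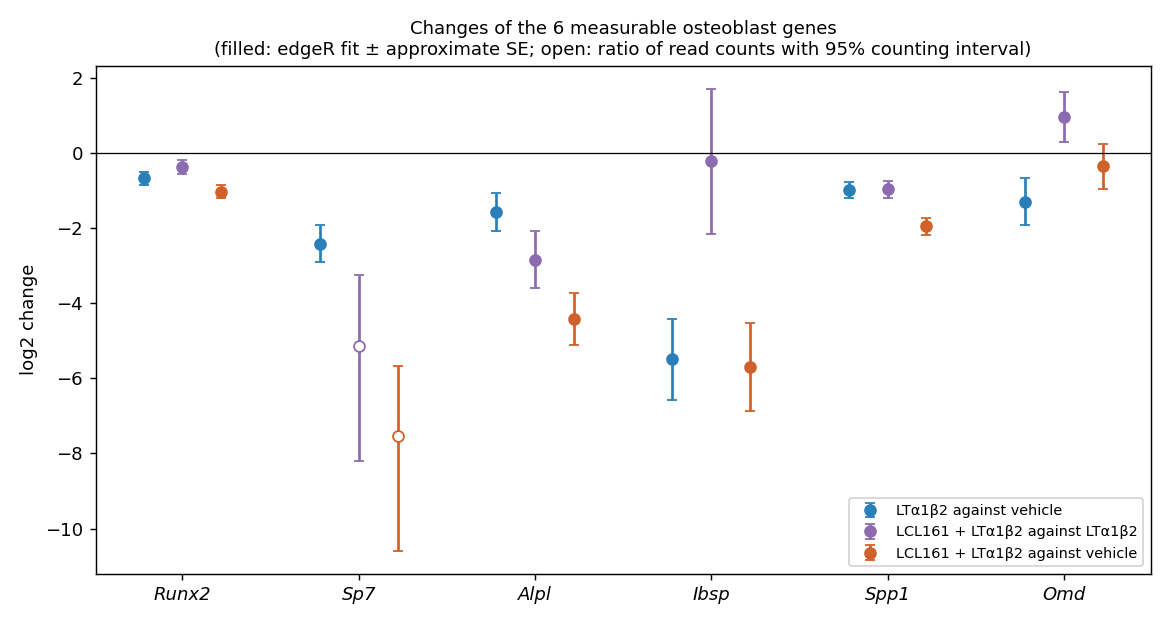
Log2 change (vertical axis) of the 6 measurable genes in the 3 comparisons, shown by colour. Filled points are edgeR estimates with their approximate SE, and the open points for Sp7 are ratios of read counts with 95% counting intervals because the combination had 2 reads. Ibsp fell with LTα1β2 (-5.49, or -3.35 without vehicle replicate 1) to 6 and 9 reads. Its change on adding LCL161 was not resolved (-0.22, SE 1.93), while Sp7 and Alpl were lower again.

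In bulk RNA, fewer cells of a type and less RNA per cell cannot be told apart, and the summed stromal and fibroblast markers were also lower at each step. The summed level of the 13 marrow stromal markers was 443 to 696 CPM in vehicle, 160 to 227 CPM with LTα1β2 and 53.8 to 63.8 CPM with the combination. For 12 fibroblast and myofibroblast markers the sums were 3905 to 5141, 1480 to 1957 and 440 to 464 CPM. Of the stromal markers 12 were tested: 5 were lower and 1 higher with LTα1β2, 6 were lower on adding LCL161, and 6 were not called at each step. Of the 12 fibroblast markers 10 were lower with LTα1β2, and 9 were lower and 1 higher on adding LCL161. Among all tested genes 10.6% were lower and 12.8% higher with LTα1β2, and 15.1% and 10.6% on adding LCL161. Foxc1 was the stromal marker that rose, from 0.953 ± 0.104 to 5.15 ± 1.415 CPM with LTα1β2 (edgeR adjusted p = 0.00394). It then fell to 0.341 ± 0.276 CPM on adding LCL161 (edgeR adjusted p = 0.00113). Pdpn was the fibroblast marker that rose, from 4.325 ± 0.160 to 14.3 ± 1.28 CPM on adding LCL161 (edgeR adjusted p = 0.0076). The stromal marker Cxcl12 fell with LTα1β2 from 284 ± 122 to 57.1 ± 12.9 CPM (adjusted p = 0.00141), and the fibroblast marker Acta2 from 2516 ± 407 to 1000 ± 185 CPM (adjusted p = 0.00125; edgeR, Benjamini-Hochberg). The adipocyte and stromal marker Adipoq was near 0 in every group. How far these cells account for the levels of the 8 genes was not tested.

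Divided by the summed CPM of the stromal and fibroblast markers, the genes split. Acta2 alone gave 2516 of the mean 5092 CPM of that sum in vehicle, 1000 of 1912 with LTα1β2 and 253 of 511 with the combination. The scale therefore rests largely on 1 myofibroblast gene. Per 1000 CPM of that sum, Sp7 was at 2.998 and 2.23 in vehicle, 0.740 and 1.74 with LTα1β2, and 0 and 0.310 with the combination, and so lay lower at each step also on this scale. Ibsp went from 5.996 and 1.03 in vehicle to 0.234 and 0.220 with LTα1β2, and was at 0.553 and 0.931 with the combination. Alpl was at 4.35 and 1.88 in vehicle, 2.80 and 3.04 with LTα1β2 and 2.21 and 0.776 with the combination. On this scale its vehicle libraries enclosed both LTα1β2 libraries, while the combination lay below LTα1β2. Runx2 was higher with each step on this scale, at 1.94 and 2.71, then 3.97 and 3.68, then 9.74 and 12.6. Spp1 did the same, at 489 and 480, then 597 and 695, then 1175 and 1331, so that both genes differed less between groups than the stromal sum did. Omd was at 0.223 and 0.139, 0.311 and 0.122, and then 1.74 and 1.11. These ratios are a description and were not tested, and with 2 libraries a group no exact rank test between 2 groups could reach a threshold of 0.05.

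**Figure D4:**
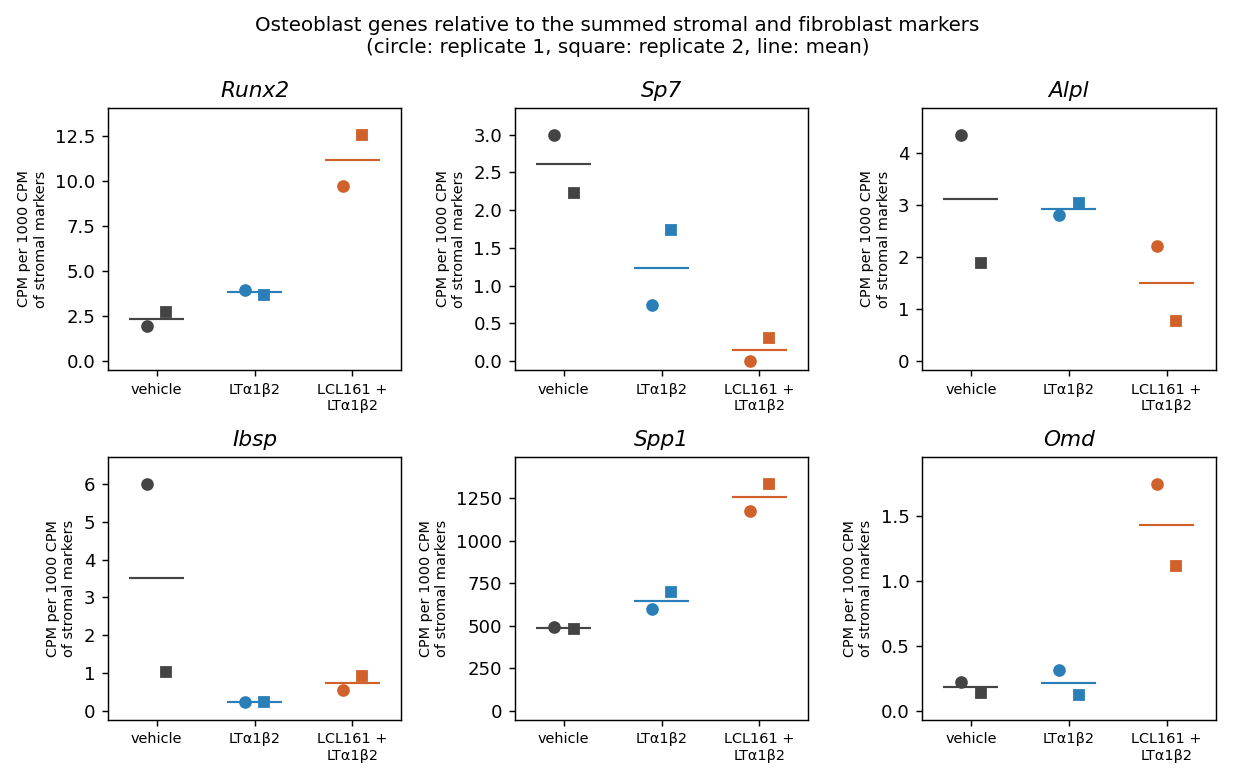
CPM of each gene per 1000 CPM of the summed marrow stromal and fibroblast markers (vertical axes, linear, each panel with its own scale) in the 6 libraries by group, with lines at the group means. Sp7 was lower at each step (means 2.61, 1.24 and 0.155), whereas Runx2 (2.33, 3.83 and 11.2) and Spp1 (484, 646 and 1253) were higher.

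Other cells that can make these transcripts were measured with the same lists. The counts below stand beside 10.6% of all tested genes called lower and 12.8% higher with LTα1β2. On adding LCL161 these shares were 15.1% and 10.6%, and for the combination against vehicle they were 21.1% and 18.4%. Nothing is therefore read from 1 or 2 calls in a list. Osteoclast markers, of interest for Spp1, had a summed level of 417 to 420 CPM in vehicle, 404 to 407 CPM with LTα1β2 and 379 to 440 CPM with the combination; 5 of the 9 tested were lower and 2 higher with LTα1β2, and 3 were lower and 4 higher on adding LCL161. For the combination against vehicle, 4 of the 9 were lower and 4 higher, so the sum hides moves in both directions. Dcstamp rose from 4.23 ± 1.73 to 43.9 ± 4.89 CPM (edgeR adjusted p = 3.3e-05). Ctsk fell from 32.3 ± 5.69 to 7.215 ± 0.194 CPM (edgeR adjusted p = 0.000109). The osteoclast receptor genes Calcr and Oscar were near 0 throughout. Tnfrsf11a (the receptor RANK), the most abundant of that list over all 6 libraries but not in vehicle, had 42.6 ± 1.37 CPM in vehicle, 137 ± 4.19 with LTα1β2 and 84.3 ± 41.0 with the combination. Markers of plasmacytoid dendritic cells, which can express Runx2, summed to 152 to 160 CPM in vehicle, 359 to 385 CPM with LTα1β2 and 311 to 316 CPM with the combination, most of it from Lair1, which other leukocytes also express. Of the 7 tested, 1 was called with LTα1β2, as higher, and on adding LCL161 1 was lower and 2 were higher: Siglech rose from 1.72 ± 0.361 to 4.36 ± 1.63 CPM (adjusted p = 0.024) and Ccr9 from 1.32 ± 0.576 to 3.50 ± 0.620 CPM (adjusted p = 0.0279). Neutrophil markers, of interest for Alpl, summed to 547 to 804, 826 to 1052 and 366 to 391 CPM; 1 of 10 was lower and 4 higher with LTα1β2, and 6 were lower on adding LCL161. For the combination against vehicle, 7 of the 10 were lower and 1 higher. Averaged over all 6 libraries their most abundant gene was S100a8, with 156 ± 28.9 CPM in vehicle, 290 ± 48.4 with LTα1β2 and 178 ± 8.29 with the combination. S100a8 was not among those called for the combination against vehicle. Chondrocyte markers summed to 74.5 to 131, 29.2 to 39.7 and 13.0 to 15.8 CPM, with Col2a1 at 91.0 ± 39.8, 27.9 ± 7.52 and 6.67 ± 0.453 CPM, while Acan and Hapln1 were near 0. Of the 8 tested, 1 was lower with LTα1β2, and 2 were lower and 1 higher (Col9a1, adjusted p = 0.0175) on adding LCL161. Endothelial markers summed to 20.3 to 33.2 CPM in all libraries, with Vwf at 11.2 ± 0.723 CPM in vehicle, and Cldn5 was near 0. Of the 8 tested, 1 was lower with LTα1β2, and 1 was lower and 2 were higher on adding LCL161: the VEGF receptor gene Kdr rose from 1.86 ± 0.0146 to 11.5 ± 1.24 CPM (adjusted p = 0.000302), and Tek also rose (adjusted p = 0.0265). The part of these cells in the results was not tested.

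Beyond the 8 genes, 79 further genes of the osteoblast lineage were taken in 5 lists (transcription factors, bone matrix, small leucine-rich proteoglycans, mineralisation, and signalling), of which 59 were tested. These lists too were chosen with earlier results of these data known, so their counts are a description and no independent support. With LTα1β2, 26 fell and 1 rose, with a median log2 change of -0.89 against -0.039 over all tested genes; 10.6% of all tested genes were called lower and 12.8% higher. Adding LCL161, 29 fell and 0 rose, with a median of -1.18 against 0.004 over all genes (15.1% called lower, 10.6% higher). At an unadjusted p under 0.05 edgeR counted 2 higher there, and DESeq2 and limma voom also called 0 higher. For the combination against vehicle, 42 fell and 1 rose (Phex), with a median of -2.15 against 0.047 (21.1% called lower, 18.4% higher). The count of genes that fell with LTα1β2 was 16 without LTα1β2 replicate 1 and 18 without vehicle replicate 1. Exons of Runx1, Fgfr1, Prelp, Slc20a1, Slc20a2, Smpd3 and Wnt5a overlap another gene on the other strand, and whether counting used strand is not known.

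Of 12 bone matrix genes tested, 9 fell with LTα1β2 and 9 on adding LCL161. Col24a1, a minor collagen, had a log2 change of 2.15 on adding LCL161 that did not pass (adjusted p = 0.0876). Col1a1 fell from 2220 ± 736 to 784 ± 215 CPM with LTα1β2 (log2 change -1.50, SE 0.25, adjusted p = 0.0053) and to 170 ± 12.1 CPM on adding LCL161 (-2.21, SE 0.26, adjusted p = 0.000903). Col1a2, the other collagen I chain, and Sparc, a collagen-binding protein, fell with it (Col1a2 -1.16 and -2.08; Sparc -1.35 and -1.83). Cthrc1 and Postn, matrix proteins of bone surfaces and of other connective tissue, also fell at both steps (Cthrc1 -2.04 and -2.51; Postn -1.37 and -2.25; adjusted p from 9.65e-05 to 0.00102). Adjusted p for Col1a2 with LTα1β2 was 0.0184, and 0.0867 and 0.129 without vehicle replicate 1 and LTα1β2 replicate 1. Dmp1, a late-osteoblast and osteocyte gene of the family of Ibsp and Spp1, had 6.15 and 3.03 CPM in vehicle and did not pass in any comparison. The other members of that family, Mepe and Dspp, and the osteoblast gene Ifitm5 were near 0 and were not tested.

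Of the 11 transcription factors of the lineage tested, 2 fell with LTα1β2, 4 on adding LCL161 and 9 for the combination against vehicle. Atf4, Runx1 and Cbfb (the partner subunit of all RUNX proteins), which leukocytes also express and which were the most abundant, had log2 changes of -0.08, -0.05 and -0.06 with LTα1β2 and of 0.06, -0.32 and -0.29 on adding LCL161, none of which passed. For the combination against vehicle Runx1 (-0.37, adjusted p = 0.0471) and Cbfb (-0.35, adjusted p = 0.0238) were lower and Atf4 was at -0.02, and the calls of Runx1 and Cbfb were lost without either vehicle library or combination replicate 1 (adjusted p = 0.0675 to 0.153). Twist1, a mesenchymal factor that restrains Runx2, had 0.706 ± 0.148 CPM in vehicle and 1.43 ± 0.138 CPM with LTα1β2, which did not pass, and fell to 0.188 ± 0.0593 CPM on adding LCL161 (adjusted p = 0.00842). Snai2, a mesenchymal factor, fell from 41.5 ± 8.65 to 17.0 ± 5.33 CPM with LTα1β2 (adjusted p = 0.00669) and to 4.22 ± 0.331 CPM on adding LCL161 (adjusted p = 0.00162). Dlx5, which acts upstream of Sp7, had 96 and 28 reads in vehicle, 14 and 12 with LTα1β2 and 1 in each combination library. It fell with LTα1β2 (log2 change -1.97, adjusted p = 0.0388), a call lost without vehicle replicate 1 (0.439), LTα1β2 replicate 1 (0.118) or LTα1β2 replicate 2 (0.183). Msx1, a homeobox factor of skeletal progenitors, did not pass with LTα1β2 (-0.82) and fell on adding LCL161 (-2.41, SE 0.37, adjusted p = 0.0031).

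Among the 13 proteoglycans related to Omd, biglycan was the most abundant. Biglycan (Bgn), decorin's close relative, fell from 607 ± 89.8 to 327 ± 94.8 CPM with LTα1β2 and to 89.2 ± 6.95 CPM on adding LCL161 (adjusted p = 0.0156 and 0.000638). Osteoglycin (Ogn), a neighbour of Omd on chromosome 13, had 41.0 and 18.1 CPM in vehicle, 3.96 and 5.61 CPM with LTα1β2 and 1.39 and 0.536 CPM with the combination. Both of its steps passed (log2 change -2.62, SE 0.42, adjusted p = 0.0043, and -2.30, SE 0.60, adjusted p = 0.0274), the second not without LTα1β2 replicate 2 (0.115) or LCL161 plus LTα1β2 replicate 2 (0.0952). Fibromodulin (Fmod) fell at both steps (log2 change -1.97 and -3.34), and Prelp with LTα1β2 (-2.27). With LTα1β2, the calls of Bgn and Fmod were lost without vehicle replicate 1 (adjusted p = 0.0921 and 0.134) or LTα1β2 replicate 1 (0.0806 and 0.119). Prelp was lost there too (0.237 and 0.133) and without LTα1β2 replicate 2 (0.0828), and the second call of Fmod without LTα1β2 replicate 2 (0.0542) or LCL161 plus LTα1β2 replicate 1 (0.0576). Of the 7 tested, 4 fell with LTα1β2 and 3 on adding LCL161.

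Of the 7 mineralisation genes tested beside Alpl, 4 fell with LTα1β2 and 3 on adding LCL161. Enpp1, which makes the mineralisation inhibitor pyrophosphate, fell from 125 ± 1.38 to 36.5 ± 1.58 CPM with LTα1β2 (log2 change -1.77, SE 0.12, adjusted p = 7.5e-05) and to 19.5 ± 3.14 CPM on adding LCL161 (-0.90, SE 0.13, adjusted p = 0.00218). Ank, which exports pyrophosphate or ATP, had 56.4 ± 5.78 CPM in vehicle and 46.5 ± 5.04 CPM with LTα1β2, a step that did not pass, and fell to 7.71 ± 2.91 CPM on adding LCL161 (-2.59, SE 0.23, adjusted p = 0.000296). The phosphate transporter Slc20a1 fell with LTα1β2 (-0.84, adjusted p = 0.0025) and had a log2 change of -0.08 on adding LCL161. Slc20a2, its relative, fell at both steps (-0.51 and -0.82; adjusted p = 0.0318 and 0.00529). The first call of Slc20a2 was lost without any 1 of the 4 libraries (adjusted p = 0.0596 to 0.284). Smpd3, a sphingomyelinase needed for bone mineralisation, fell with LTα1β2 (-2.35, SE 0.32, adjusted p = 0.00199). Phex, an osteocyte endopeptidase, was the single lineage gene that rose for the combination against vehicle, from 8 and 7 reads to 19 and 12 (log2 change 1.61, adjusted p = 0.0434). That call was lost with total counts (adjusted p = 0.0851), DESeq2 (0.118), no filter (0.0778) or any of the 4 libraries left out (0.0927 to 0.266). Phospho1, a phosphatase of matrix vesicles, had 4.83 to 13.5 reads per library. Its log2 changes of -0.04 (SE 0.59) with LTα1β2 and 0.09 (SE 0.61) on adding LCL161 were not resolved. Its exons overlap Zfp652 on the same strand and Abi3 on the other.

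Among signalling genes, the decoy receptor osteoprotegerin (Tnfrsf11b), which osteoblasts and stromal cells secrete to block RANKL, fell from 212 ± 1.09 to 60.3 ± 9.68 CPM with LTα1β2 and to 14.1 ± 1.42 CPM on adding LCL161 (log2 change -1.81, SE 0.13, and -2.10, SE 0.14; adjusted p = 9.37e-05 and 0.00011). RANKL itself (Tnfsf11) fell from 3.23 ± 0.211 to 0.656 ± 0.206 CPM with LTα1β2 (-2.27, SE 0.35, adjusted p = 0.00354). Wnt5a, a non-canonical Wnt ligand, fell at both steps (-1.19 and -1.26; adjusted p = 0.00163 and 0.00165). Igf1, which macrophages also make, fell with LTα1β2 (-0.89, adjusted p = 0.00415) and had a log2 change of -0.04 on adding LCL161. The receptor Fgfr1 had -0.56 with LTα1β2, which did not pass, and fell by 1.40 on adding LCL161 (adjusted p = 0.00279), as did Smad1, a transducer of BMP signals (-0.64, adjusted p = 0.0391). The Smad1 call was lost without LTα1β2 replicate 1 (0.0942), LTα1β2 replicate 2 (0.115) or LCL161 plus LTα1β2 replicate 1 (0.0768). Sfrp1, a secreted Wnt antagonist, was the single lineage gene that rose with LTα1β2, from 5.83 and 2.92 to 7.91 and 11.9 CPM (adjusted p = 0.0466), and it fell on adding LCL161 to 0.803 and 1.38 CPM (adjusted p = 0.00192). Its rise was lost without vehicle replicate 2 (0.186) or LTα1β2 replicate 2 (0.262) and under total-count scaling (0.0729). Of the 22 signalling genes tested, 7 fell and 1 rose with LTα1β2, and 10 fell on adding LCL161.

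**Figure D5:**
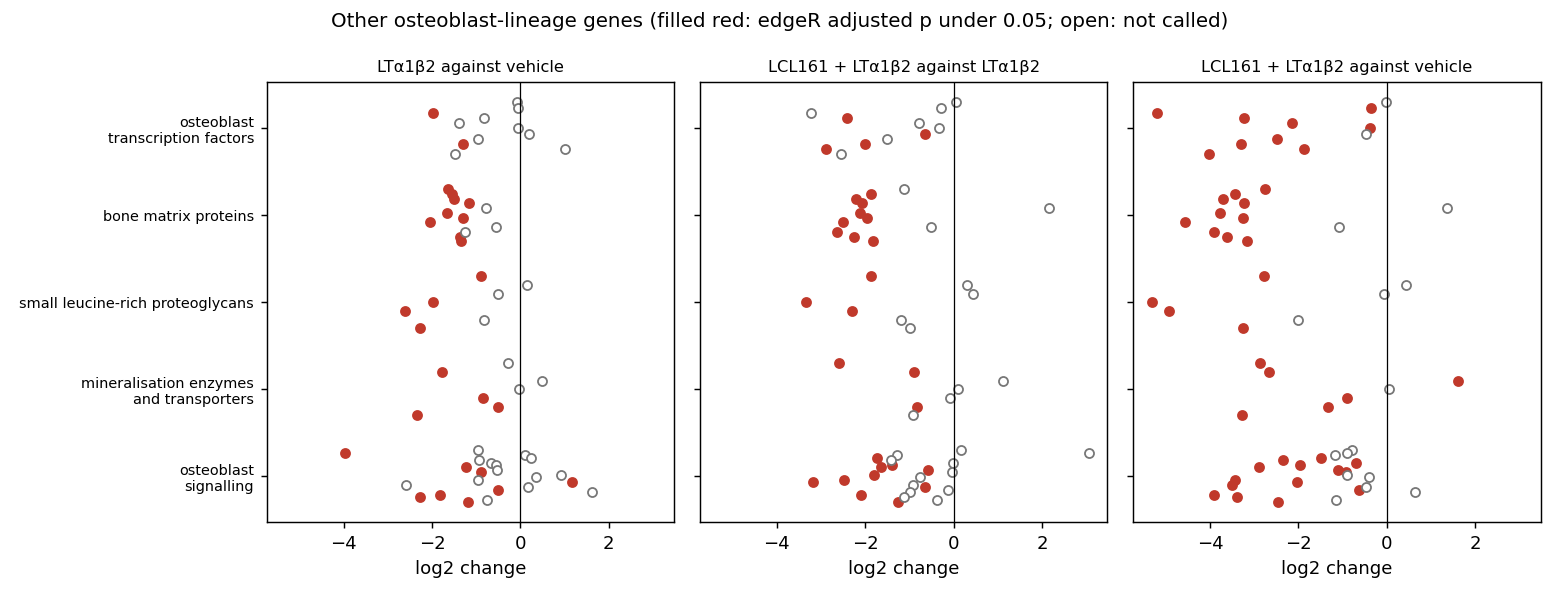
Log2 change (horizontal axes, 1 panel per comparison) of the 59 tested osteoblast-lineage genes outside the 8, by list, with filled red points for genes called at an edgeR adjusted p under 0.05 and open points for the rest. Most called points lie left of 0 in every panel: 26 of 27 calls with LTα1β2, 29 of 29 on adding LCL161 and 42 of 43 for the combination against vehicle.

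Across the 6 libraries the measurable genes did not follow 1 pattern. Pearson's r of log2 CPM was 0.984 between Sp7 and Spp1 and 0.958 between Runx2 and Spp1, and 0.794 between Sp7 and Ibsp, whereas Omd correlated with Sp7 at 0.044. Of 12790 genes compared, those most like Sp7 were Col16a1 (r = 0.9996), Ubap2 (0.9988) and Ipo9 (0.9985), and those most like Spp1 were Rpl8 (0.9997), Ptges3l (0.9991) and Rpa3 (0.9981). Runx2 was followed most closely by Laptm4b (0.9989), Relt (0.9974) and Nfic (0.9966), Alpl by Npr3 (0.9958), Faxc (0.9957) and Rsrc1 (0.9951), and Ibsp by Capn12 (0.9948), Rps26-ps1 (0.9937) and Ccdc38 (0.9911). For Omd the leading genes were Shroom2 (0.9943), Ofd1 (0.9855) and Armc1 (0.9828). With 6 libraries in 3 groups such values are common: 1183 genes had an r above 0.95 with Sp7, 1071 with Spp1, 607 with Alpl, 566 with Runx2, 121 with Ibsp and 18 with Omd. They are given as a description, since the libraries share their groups, depth and composition.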

How the data were processed

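The 6 RNA sequencing libraries of mouse marrow macrophages fall into 3 groups by their titles. In the deposited table the values are the authors' expected counts (estimated read counts) per gene symbol, not normalised; 66.6% of its non-zero values are whole (tolerance 1e-09). The submitters' processing notes name STAR (2.7.3a), GRCm38 and DESeq2 (1.26.0). The sources used here do not give the counting program, annotation, strand setting or handling of multiply mapped reads. Counts were rounded for the tests. Date-like names (26 entries, at most 0.178% of counts) were kept and are not named. The filter filterByExpr (minimum count 10) left 18812 of 55023 genes.

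All 3 comparisons were fitted with edgeR 4.0.16 under R 4.3.3 (quasi-likelihood F test, two-sided, group means over all 6 libraries, TMM factors of 0.874 to 1.15), with Benjamini-Hochberg adjustment over all genes tested and calls under 0.05. The fit had 3 residual degrees of freedom and a common biological coefficient of variation of 13.6%. The procedure was tested on simulated data with the same spread for all genes. Changes were planted only in genes with a vehicle mean of at least 10 reads. The simulation therefore cannot show how the procedure does for genes with a wider spread between replicates, such as Ibsp and Alpl. The approximate SE is |log2 change|/√F. CPM use TMM-scaled library sizes and the counts as deposited. Replicates differed beyond counting error: chi-square divided by its degrees of freedom was 14.1 (vehicle), 7.74 (LTα1β2) and 10.1 (combination). Intervals on ratios of reads are exact binomial (Clopper-Pearson, 95%) and cover counting error only; a floor of 3 reads stands for a count of 0.

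The 8 genes and all lists were chosen with earlier results of these data known. Named lineage genes are the 3 most abundant of each list and up to 2 further called genes per comparison with the smallest p; of each marker list the most abundant is named. Genes at or near 0, Dmp1, Phex, Phospho1, Col24a1, Twist1, Col9a1, Siglech, Ccr9, Kdr, Tek, Fcgr1, Mrc1, Foxc1, Pdpn, Dcstamp, Ctsk and the copy Bglap3 were named after their values were seen. Positions and exon lengths come from GENCODE M21 (GRCm38), matched by symbol. Alternatives were relative log expression scaling, total counts, DESeq2 1.42.0, limma 3.58.1 (voom), no filter beyond 1 read, only the groups compared, a replicate block and leaving out each library.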

Additional observations from a re-analysis of the deposited data

How the results depend on the processing

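Without a library, the genes changed numbered 1930 to 2807 with LTα1β2 against vehicle (4401 with all), 2332 to 4604 on adding LCL161 (4832) and 4885 to 6304 for the combination against vehicle (7431). Lineage genes that fell numbered 16 to 26, 22 to 30 and 38 to 42, those that rose 0 to 2, 0 to 1 and 0 to 1, and the median log2 change of the 6 measurable genes ran from -1.96 to -0.72, -0.94 to -0.45 and -3.68 to -2.59 (-1.44, -0.67 and -3.18 with all libraries). Under the other settings the lineage genes that fell stayed within 1.5 times of the full count (25 to 33, 26 to 40 and 40 to 50). Lineage genes that rose with LTα1β2 numbered 0 with total counts or the replicate block, 2 with limma voom, 3 with only the groups compared and 4 with no filter beyond 1 read. On adding LCL161 they numbered 1 with only the groups compared and 2 with no filter, and for the combination against vehicle 0 with total counts or DESeq2 and 2 with no filter. With only the groups compared, the median of the measurable genes on adding LCL161 was -1.89, since Ibsp and Omd did not pass the filter there.

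With total counts the median over all genes shifted from -0.039 to -0.229 with LTα1β2, from 0.004 to -0.117 on adding LCL161 and from 0.047 to -0.264 for the combination. The same scaling moved the share of calls that were higher from 54.8% to 33%, 41.2% to 28% and 46.6% to 24.6%. Signs turned for some values near 0. With LTα1β2 against vehicle, Smad1 was -0.02 with total counts, and Atf4, Runx1 and Cbfb were 0.01, 0.03 and 0.02 with no filter; leaving out a library gave -0.13 to 0.03 for Atf4 and -0.21 to 0.17 for Runx1, with the positive values without LTα1β2 replicate 1. On adding LCL161, Atf4 was -0.06 with total counts and -0.08 with no filter, and leaving out a library gave -0.05 to 0.09 for Atf4, -0.22 to 0.06 for Igf1, -0.27 to 0.03 for Slc20a1 and -0.63 to 0.06 for Ibsp. For the combination against vehicle, leaving out a library gave -0.84 to 0.27 for Omd and -0.13 to 0.01 for Atf4. The cause was not tested. Of 27 named lineage genes, 13 of 20 calls with LTα1β2, 15 of 18 on adding LCL161 and 23 of 25 for the combination held under every alternative; Runx1 and Cbfb were the exceptions in the last. Beyond left-out libraries, limma voom lost Dlx5 with LTα1β2 (adjusted p = 0.0952) and Fmod and Ogn on adding LCL161 (0.0991 and 0.148), no filter lost Slc20a2 with LTα1β2 (0.0521), the block lost Sfrp1 (0.0773), and only the groups compared lost Smad1 (0.0672). DESeq2 gave no adjusted p for 3283 genes with LTα1β2 against vehicle.

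The labels do not say whether replicate numbers pair the libraries. Deviations from the group means correlated across genes at 0.138, 0.0941 and 0.157 between groups, and such values can neither show nor exclude a shared culture or batch. With the replicate block, 4144, 4629 and 7308 genes changed, and 25, 29 and 40 lineage genes fell.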
